A study of Mus musculus with 2 samples.

Results

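Conventional CD4 T cells were followed in the tumor-infiltrating immune cells (TIIs) of B16-OVA melanomas, where they made up 332 of the 13470 cells kept. A cell was counted as a member when it held at least 2 unique molecular identifiers (UMIs, each standing for 1 captured RNA molecule) of the T cell receptor chains Cd3d, Cd3e and Cd3g together and at least 1 UMI of Cd4. It also had to show 0 UMIs of Cd8a, Cd8b1, Foxp3, Il2ra and Csf1r, which mark CD8 T cells, regulatory T (Treg) cells and myeloid cells, and at most 25% mitochondrial UMIs. Because these 9 genes chose the cells, their levels below describe the choice and are not results. The same gate with at least 1 UMI of Foxp3 and no condition on Il2ra gave 315 Foxp3-positive CD4 T cells for comparison.

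The study asked how creatine, a small molecule that cells use to store and buffer energy as phosphocreatine, acts on the immune cells of a tumor. Male C57BL/6J mice, 8 to 12 weeks old, carried subcutaneous B16-OVA tumors, a mouse melanoma line that expresses ovalbumin. One group was injected intraperitoneally each day with 10.5 mg of creatine per mouse, and the control group received PBS alone. Per the labels, 4 tumors were pooled per group on day 14, living cells that carried the leukocyte antigen CD45.2 were sorted, and each pool gave 1 droplet-based 3′ single-cell RNA library. There was therefore 1 library per group, differences between the libraries have no replicate check, and every interval below is an exact 95% interval that covers counting error only. No test and no p-value was possible, and creatine cannot be told apart from pool, sort or library.

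CD4 T cells recognize peptides on MHC class II through their T cell receptor and steer other immune cells with cytokines and with surface ligands such as CD40L. Conventional CD4 T cells lack FoxP3, the transcription factor that makes a CD4 T cell regulatory, and those in tumors range from recently arrived cells that still carry the homing and survival program of naive and central memory cells to effector cells that have settled in the tissue. Klf2 is a transcription factor that keeps T cells recirculating by driving S1pr1, the sphingosine receptor used to leave tissue, whereas the chemokine receptor Cxcr6 is typical of T cells held in tissue.

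The control library held 149 conventional CD4 T cells among 7241 kept cells and the creatine library 183 among 6229. Their share was 2.06% (1.74 to 2.41) in the control and 2.94% (2.53 to 3.39) in the creatine library, whereas Foxp3-positive cells were 2.47% and 2.18%. The intervals of the conventional share did not overlap, and those of the Foxp3-positive share, 2.13 to 2.86 and 1.83 to 2.58, did. These shares were not thinned. Membership needs a detected Cd4 UMI, so the different depth of the libraries can also move the conventional share, and its part was not tested. Without the rich cells described below the share was 1.85% and 2.84%. The intervals did overlap without dividing cells (99 control and 106 creatine members) and without cells with Treg marker UMIs (107 and 118). The control members held 647220 UMIs and the creatine members 1028770, with medians of 3765 and 4816 UMIs and of 1568 and 1762 genes per cell. They were shallower than Foxp3-positive cells (medians of 6756 and 6625 UMIs) and CD8 T cells (9530.5 and 11716), so shares of cells with a UMI were compared after each cell was thinned to 2000 UMIs. At that depth 17 control and 6 creatine members were too shallow and were left out of shares. The libraries shared 30 cell barcodes over all barcodes, before the mitochondrial limit, and none among the members.

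Near the limits of the gate, 80 control and 77 creatine members held a single Cd4 UMI, and 7 and 3 held exactly 2 UMIs of the Cd3 genes. Just outside it lay 12 and 9 cells with 1 Cd3 UMI, 24 and 21 with 1 Cd8 UMI, 28 and 19 with Il2ra, 12 and 10 with Csf1r, and 14 and 7 with a single Foxp3 UMI. Cells that lacked Cd4 UMIs but met every other condition numbered 424 and 421, more than the members themselves. Stray Cd4 reads were scarce: 3.48% and 3.61% of T cells with 2 or more Cd8 UMIs held a Cd4 UMI, at median depths of 10028 and 12285 UMIs, as did 0.434% and 0.465% of NK cells at 4116 and 5608.

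A few members were rich in RNA of other cell types. Among 40 markers of monocytes and macrophages, dendritic cells, B cells, granulocytes, NK cells, melanoma cells and MHC class II, 15 control and 6 creatine members held 10 or more UMIs, and these cells carried 16.2% and 8.19% of the members' UMIs. In each library 1 member held most of the MHC class II RNA (603 of 891 UMIs in the control, 585 of 724 in the creatine library) and 1 held 25 or 21 UMIs of Siglech, a plasmacytoid dendritic cell gene. Over all members the monocyte and macrophage markers summed to 590.2 CPM (UMIs per 1000000 UMIs of the cell group) among control and 324 among creatine members, led by Apoe and Tyrobp, with Csf1r at 0 by the gate. The melanoma markers stood at 44.8 and 70.0 CPM and the B cell markers at 13.9 and 7.78, with Ms4a1 at 0 in both. Counts that open a comparison are also given without the rich cells, an alternative chosen after seeing the data.

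The label markers that the gate did not use were found in a minority of members, more often than in Foxp3-positive or CD8 T cells. They came with the label, which was chosen with earlier results of these data known, so they are no independent check of it. Cd40lg encodes CD40L, the ligand with which helper cells license B cells and dendritic cells, and Tnfsf8 encodes CD30L; neither was used by the gate. At 2000 UMIs per cell, Cd40lg was found in 11.4% (6.55 to 18.1) of control and 14.8% (9.89 to 20.9) of creatine members, against 0.246% and 0.342% of Foxp3-positive cells, 0.228% and 0.266% of CD8 T cells. Among Csf1r-positive myeloid cells, which should lack it, it was seen before thinning in 0 of 1264 and 1 of 1137. Tnfsf8 was found in 9.63% (5.19 to 16.0) and 15.3% (10.3 to 21.4) of members, against 0.43% and 1.09% of Foxp3-positive cells and 1.94% and 2.86% of CD8 T cells. Without thinning, Cd40lg was seen in 30 of 149 and 57 of 183 members, 20.1% and 31.1%, at their medians of 3765 and 4816 UMIs, and in 1.12% and 1.47% of the deeper Foxp3-positive cells. Tnfsf8 was found in 19.9% (4.31 to 47.9) of Cd40lg-positive and 8.31% (4.00 to 14.9) of Cd40lg-negative control members. In the creatine library these shares were 17.9% (5.79 to 37.8) and 14.8% (9.56 to 21.5). The intervals are too wide to say how closely the 2 markers were joined in the same cells. Zbtb7b, the factor that commits thymocytes to the CD4 lineage, was found in 14.8% and 8.31% of members and 1.59% and 1.61% of CD8 T cells.

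**Figure D1:**
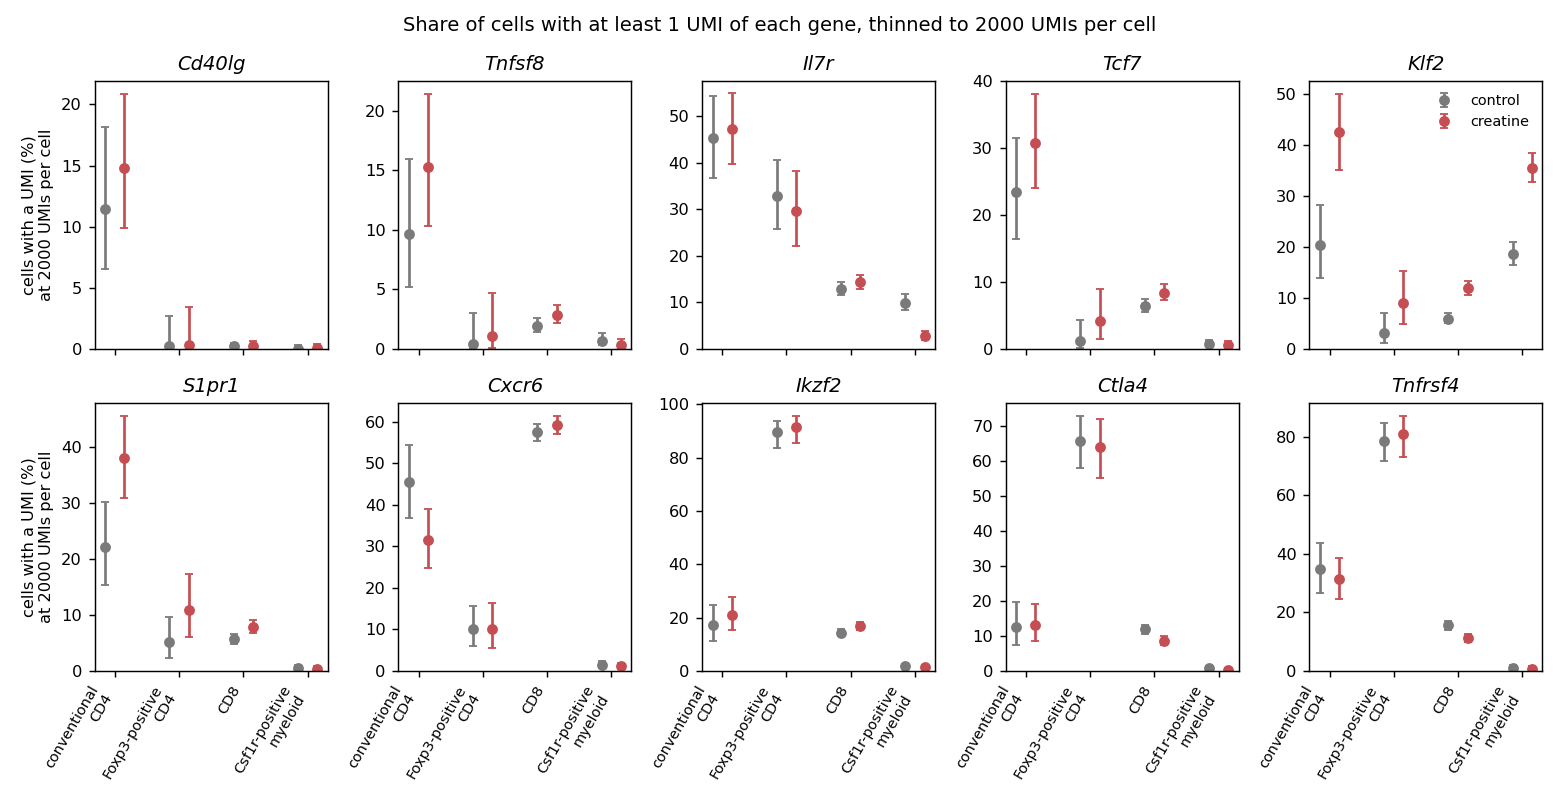
Share of cells (%) with at least 1 UMI of each of 10 genes after thinning to 2000 UMIs per cell, in conventional CD4, Foxp3-positive CD4, CD8 and Csf1r-positive myeloid cells of the control (grey) and creatine (red) library. Points are shares and bars exact 95% intervals; Cd40lg and Tnfsf8 stand near 0 outside the conventional cells, Ikzf2, Ctla4 and Tnfrsf4 are highest in the Foxp3-positive cells, and Klf2 and S1pr1 are higher in the creatine library.

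The genes that stood highest in conventional over Foxp3-positive CD4 T cells included the survival gene Bcl2, the naive and recirculation genes Tcf7, Klf2 and S1pr1 and the residency gene Cxcr6, and those that stood lowest included the Treg genes Ikzf4, Ctla4, Ikzf2 and Tnfrsf9. Of 3135 genes with at least 100 UMIs over both cell groups in each library, 53 (1.69%) were at least 2-fold higher in conventional cells in both libraries and 119 (3.8%) at least 2-fold lower. Without the rich cells in either group, 29 genes were higher and 87 lower. Over 13 alternatives, which include other gate conditions and count minimums, 8 to 99 genes were higher and 21 to 191 lower. The cell groups were separated by Foxp3, and on the conventional side also by Il2ra, so these counts describe the groups and carry no test. The groups also differed in depth, as given above.

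Bcl2, which encodes a survival protein, led the conventional side. It stood at 165 CPM in conventional and 17.4 in Foxp3-positive cells of the control library, and at 184 and 14.8 in the creatine library, log2 ratios of 3.25 (2.66 to 3.88) and 3.64 (2.95 to 4.40). Tcf7 encodes TCF1, the factor of naive and self-renewing T cells. It was at 148 against 6.17 CPM in the control and 210.0 against 23.4 in the creatine library, log2 ratios of 4.59 (3.69 to 5.64) and 3.17 (2.61 to 3.77), or 24.1-fold and 8.99-fold. Klf2 was 9.41-fold higher in the control (153 against 16.3 CPM) and 6.98-fold higher in the creatine library (424 against 60.7), and S1pr1 had log2 ratios of 2.24 and 2.19. In each library conventional cells were thus the higher group for all 4 genes, with intervals clear of 0. Cxcr6, the residency-associated receptor, was also higher in conventional cells, at 462 against 59.99 CPM in the control and 330.5 against 69.3 in the creatine library, 7.70-fold and 4.77-fold. The other leading genes were Ly6c2 (3.26 and 2.68 on the log2 scale), a surface antigen of activated T cells and monocytes, Itgb1 (2.89 and 2.25), the integrin beta-1 chain, Ms4a4b (3.64 and 2.19), a membrane protein of T cells, Themis (2.60 and 2.34), a T cell receptor signaling adaptor, and the long non-coding RNA Gm2682 (3.53 and 2.33).

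On the Foxp3-positive side, 4 of the 10 leading genes belonged to the Treg list. Ctla4, the inhibitory receptor for CD80 and CD86, was at 119 CPM in conventional and 643 in Foxp3-positive cells of the control library and at 89.4 and 715 in the creatine library, log2 ratios of -2.43 (-2.79 to -2.10) and -3.00 (-3.33 to -2.69). Ikzf2, which encodes the Treg factor Helios, had log2 ratios of -2.29 and -2.82, its relative Ikzf4 (Eos) -3.02 and -2.93, and Tnfrsf9 (4-1BB) -2.26 and -3.35. Snx9, a membrane-remodelling sorting nexin, ranked first on this side, at -3.72 and -3.91. The others were Neb (-2.72 and -4.26), a giant actin-binding protein of muscle, Bmyc (-2.60 and -2.52), a relative of Myc, the metallothionein Mt1 (-2.43 and -2.66), the small GTPase Arl5a (-2.53 and -2.40) and the membrane protein Cmtm7 (-2.74 and -2.29). Of the 15 Treg markers listed, 8 outside the gate could be measured, and all 8 were at least 2-fold lower in conventional cells in both libraries, with medians of -2.09 and -2.88 beside -0.10 and -0.13 over all genes. The signal was still not at 0 in conventional cells: Ikzf2 was found in 17.1% (11.1 to 24.6) and 21.1% (15.3 to 27.8) of members at 2000 UMIs, close to the 14.3% and 16.8% of CD8 T cells and far below the 89.5% and 91.6% of Foxp3-positive cells. Among members, Ikzf2 was found in 7.42% of Cd40lg-positive and 18.3% of Cd40lg-negative control cells and in 11.5% and 22.7% of creatine cells, with wide intervals.

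**Figure D2:**
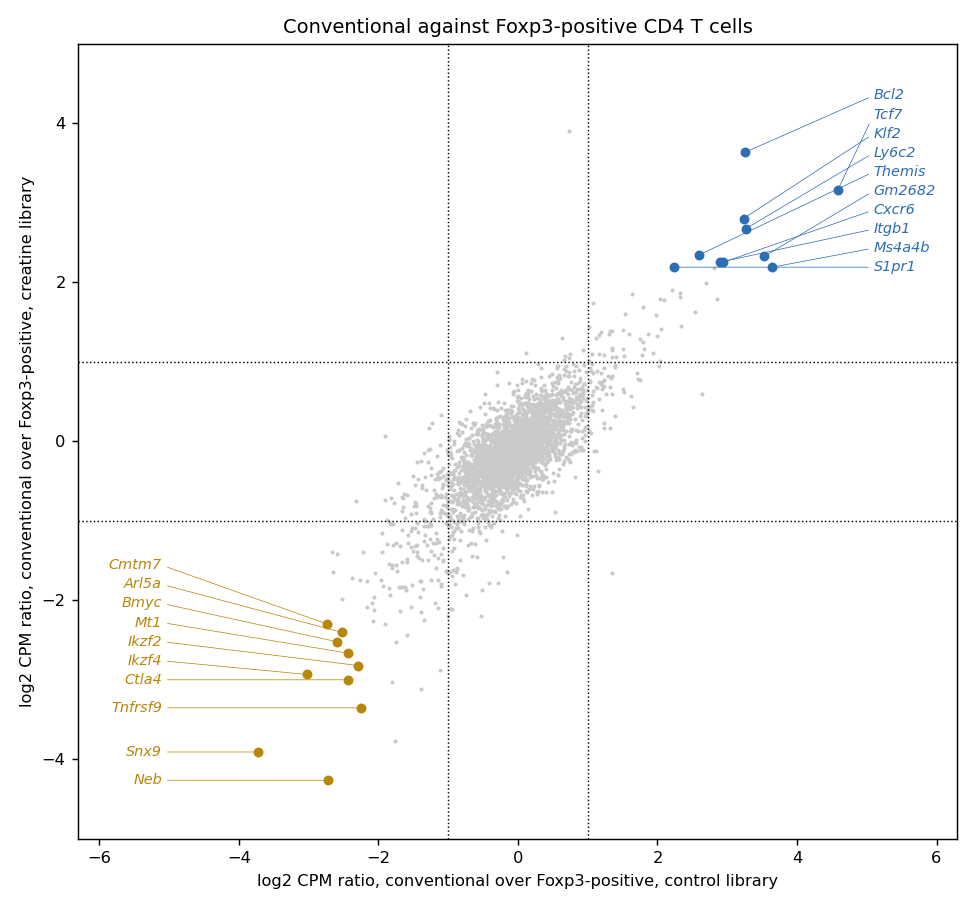
Log2 CPM ratio of conventional over Foxp3-positive CD4 T cells in the control library (x axis) and in the creatine library (y axis), 1 point per gene, with dotted lines at the 2-fold limits. The 10 leading genes of each side are named; Tcf7, Bcl2 and Klf2 lie at the upper right and Snx9, Ikzf4 and Ctla4 at the lower left.

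Grouped by function, 5 of the 8 measured genes of the naive and memory list were at least 2-fold higher in conventional cells in both libraries and 1 at least 2-fold lower, with medians of 1.58 and 1.498. Of the Th1 list 4 of 9 measured genes were higher in both libraries (medians of 0.87 and 0.90), and of the cytokine receptor list 3 of 9. Other lists stood lower in conventional cells: the cytokines and chemokines (3 of 5 lower in both, Il10, Ccl3 and Ccl4; medians of -2.22 and -1.39), the checkpoint receptors (2 of 6; -0.68 and -1.01), the costimulatory receptors (4 of 8 lower in both; medians of -0.99 and -1.29), the glycolytic enzymes (4 of 13; -0.92 and -0.90) and the genes of dividing cells (8 of 15; -1.51 and -1.13). The cytotoxic list was mixed, with 2 of 5 lower in both libraries, 2 of 5 at least 2-fold higher in the control library alone, and medians of -0.36 and -0.69. Cells with an Il2ra UMI were left out of the conventional group only, and the part of this condition in these lists was not tested. Ctla4, Tnfrsf4 and Tnfrsf9 are Treg markers as well as checkpoint or costimulatory receptors, so these groups are not separate from the Treg list. Mki67, a marker of cycling cells, was found in 11.2% and 8.2% of conventional and 23.2% and 23.8% of Foxp3-positive cells. Of 73 respiratory chain genes measured none was past 2-fold in both libraries and 1 was lower in the control library alone, with medians of -0.38 and -0.26. Penk, a proenkephalin gene, had log2 ratios of 1.35 in control and -1.65 in creatine cells, with its conventional UMIs in 10 and 4 cells. Tbc1d4, which encodes a Rab GTPase-activating protein, was at 0.74 and 3.91.

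Within the conventional cells, genes of effector and tissue-held cells and genes of naive and central memory cells were each found in part of the members. After thinning, Cxcr6 was found in 45.4% (36.7 to 54.3) of control and 31.6% (24.8 to 39.0) of creatine members and Nkg7, a cytotoxic granule protein, in 46.7% and 44.8%. Pdcd1, the checkpoint receptor PD-1, was found in 10.6% and 12.7%. Lef1, a factor of naive T cells, was found in 10.9% (6.17 to 17.5) and 18.9% (13.4 to 25.4) of members and Ccr7, the receptor that guides T cells into lymph nodes, in 3.50% and 7.11%. Tcf7 was found in 23.4% and 30.8% and Il7r in 45.3% and 47.2%. The intervals of the 2 libraries overlapped for each of these 7 genes. CD8 T cells held Cxcr6 in 57.4% and 59.3% of cells and Lef1 in 4.33% and 6.17%, and Foxp3-positive cells held Lef1 in 7.03% and 5.79%.

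Shares of S1pr1, Cxcr6, Nkg7 and Tcf7 were also taken by whether a member held Klf2 or Cxcr6. S1pr1 was found in 48.0% of Klf2-positive and 15.6% of Klf2-negative control members, and in 53.2% and 26.8% of creatine members. Cxcr6 was found in 26.0% of Klf2-positive and 50.4% of Klf2-negative control members and in 21.9% and 38.8% of creatine members, with overlapping intervals in both libraries. Nkg7 was found with Cxcr6 more often than without it, at 56.4% against 38.5% and 67.2% against 34.4%, whereas Tcf7 was found in 15.4% of Cxcr6-positive and 30.0% of Cxcr6-negative control members and in 15.6% and 37.8% of creatine members. The intervals did not overlap for S1pr1 in either library and for Nkg7 and Tcf7 in the creatine library, and overlapped for Nkg7 and Tcf7 in the control. All cells of a library share its depth and its free RNA, and these shares carry no test.

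The cytokines that define helper lineages, and the follicular helper genes, were sparse. Among Th1 genes, Ifng, the hallmark cytokine, was found in 10.3% (5.69 to 16.8) and 7.92% (4.40 to 12.9) of conventional cells, against 3.04% and 3.52% of Foxp3-positive and 25.03% and 35.5% of CD8 T cells, and its inducer Tbx21 (T-bet) in 5.55% and 7.42%. Gata3, the Th2 factor that T cells also keep at lower levels, was found in 21.7% and 27.2%, yet the Th2 cytokine Il4 was seen in 1 cell of each library and Il13 in 0 of 149 and 0 of 183. With a floor of 3 counts, 0 allows shares of cells with a UMI of up to 2.01% and 1.64%. Il17a, the Th17 cytokine, was likewise at 0 in both. The follicular helper genes Bcl6, Cxcr5 and Il21 were found in 9, 2 and 1 control and 3, 9 and 1 creatine members. Il2, the growth factor that activated helper cells make, was found in 7 of 149 and 16 of 183 members. Most members therefore gave no UMI of a lineage-defining cytokine at this depth. Trdc, the constant chain of gamma-delta T cells, was found in 1 control and 6 creatine members, with 26 UMIs in 1 of the latter. The 4 gamma-delta markers listed summed to 6 UMIs in control and 108 in creatine members. These were 9.27 and 105 CPM, a creatine over control log2 ratio of 3.50 (2.33 to 4.98). Gamma-delta markers were not among those that define the rich cells.

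Between the libraries, the conventional CD4 T cells of creatine-treated mice held more RNA of 7 of the 17 measured interferon-stimulated genes and of Klf2 and S1pr1, and less of 4 of the 7 measured genes of the cytotoxic list. Of 2438 genes with at least 100 UMIs over both libraries, 114 (4.68%) were at least 1.5-fold higher in the creatine library and 72 (2.95%) at least 1.5-fold lower, with a median log2 ratio of 0.04. Without the rich cells the counts were 102 and 64 of 2161. With each cell given equal weight they were 121 and 117, so the share of higher genes among those past the fold moved from 61.3% to 50.8%.

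Klf2 stood at 153 CPM in control and 424 in creatine members (99 and 436 UMIs), a log2 ratio of 1.47 (1.15 to 1.80), or 2.77-fold. It was found in 20.4% (13.9 to 28.3) of control and 42.5% (35.1 to 50.2) of creatine members at 2000 UMIs, with no overlap of the intervals. The direction was shared by the other cells of the creatine library: the log2 ratio was 1.90 in Foxp3-positive cells, 1.29 in CD8 T cells and 1.22 over all kept cells. S1pr1 was at 122 and 270.2 CPM, a log2 ratio of 1.15 (0.78 to 1.53), found in 22.2% (15.4 to 30.2) and 38.0% (30.9 to 45.6) of members. Its ratio was 1.197 in Foxp3-positive and 0.50 in CD8 T cells. Rasgrp2, an activator of the integrin switch Rap1, was at 35.5 and 109 CPM (1.62, 0.96 to 2.33), and Ripor2, a regulator of lymphocyte polarity and migration, at 63.4 and 172 (1.44, 0.94 to 1.97). Both were also higher in the creatine library in Foxp3-positive cells (1.28 and 0.94) and in CD8 T cells (0.59 and 0.56).

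Of the 14 genes of the naive and memory list, 8 could be measured, 4 of them (Klf2, S1pr1, Lef1 and Foxp1) were at least 1.5-fold higher and 1 (Satb1) at least 1.5-fold lower, with a median log2 ratio of 0.60, of 0.62 without the rich cells and of 0.11 without the cells that held Treg markers. Lef1, the partner factor of TCF1, was at 55.6 and 97.2 CPM, a log2 ratio of 0.81, and Foxp1, a quiescence factor, at 134 and 218, 0.70. Tcf7 was at 148 and 210.0 CPM, 0.50, short of 1.5-fold, and Il7r, the survival cytokine receptor, at 480.5 and 432.6 CPM, -0.15. Satb1, a chromatin organizer, was at 145 and 90.4 CPM, -0.68. The same list had medians of 0.49 in Foxp3-positive and 0.33 in CD8 T cells.

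Interferon-stimulated genes ranked first among the genes higher in the creatine library. Ifit1 and Ifit3 encode proteins that bind foreign RNA or its sensors, and Isg15 a ubiquitin-like modifier. They are switched on by interferon through a motif called the interferon-stimulated response element, whose core was searched here as 2 copies of GAAA with any 2 bases between them, on both strands, in the window of 250 bases before to 50 after each RefSeq gene start (assembly GRCm38.p6). The motif occurs in 1131 of 32851 such windows (3.44%), counted by gene in 1079 of 27025 (3.99%), and in 8 of the 14 interferon-stimulated genes of the list that had a window (57.1%). The stretches from 170 to 51 bases before the start are shown for the 3 genes of this group that lead the comparison, on the strand of each gene, with the motif or its reverse complement (2 copies of TTTC) in capitals. They lie at chr19:34640719-34640838 (Ifit1, + strand), chr19:34583359-34583478 (Ifit3, + strand) and chr4:156200869-156200988 (Isg15, - strand).
Ifit1: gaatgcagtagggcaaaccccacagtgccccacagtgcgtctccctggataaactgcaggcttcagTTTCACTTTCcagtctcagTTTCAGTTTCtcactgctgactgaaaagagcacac
Ifit3: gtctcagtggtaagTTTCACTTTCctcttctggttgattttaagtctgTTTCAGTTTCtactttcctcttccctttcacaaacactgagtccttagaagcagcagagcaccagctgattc
Isg15: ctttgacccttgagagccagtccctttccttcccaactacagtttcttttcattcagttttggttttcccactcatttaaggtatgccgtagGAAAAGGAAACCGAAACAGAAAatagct
Ifit1 and Ifit3 hold 2 matches each, starting 104 and 85 bases and 156 and 122 bases before the start, and Isg15 holds 3 overlapping matches at 78, 72 and 66 bases. A match is a description of the letters and was not tied to binding.

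Ifit1 was at 47.9 CPM in control and 173 in creatine members (31 and 178 UMIs in 18 and 48 cells), a log2 ratio of 1.85 (1.30 to 2.45). Ifit3 was at 41.7 and 151 CPM (27 and 155 UMIs in 21 and 53 cells), also 1.85 (1.26 to 2.50). Isg15 was at 100.4 and 240.1 CPM, 1.26 (0.86 to 1.67), and at 0.48, short of 1.5-fold, with only the members that held 2 or more Cd4 UMIs. The creatine library was the higher one for each of the 3 genes, and the same held in Foxp3-positive cells (2.00, 1.51 and 1.55) and in CD8 T cells (1.09, 0.80 and 1.19). Of the 22 genes of the interferon-stimulated list 17 could be measured, 7 were at least 1.5-fold higher and none was lower by that much. The others past the fold were the exonuclease Isg20 (0.61), the apoptosis factor Xaf1 (0.59), the large ubiquitin ligase Rnf213 (0.71) and Slfn5 (0.61), a Schlafen protein. Ly6e and Ly6a, surface antigens that interferon also induces, were at -0.28 and -0.03. The list had a median of 0.47, beside 0.88 in Foxp3-positive and 0.56 in CD8 T cells, and without the rich cells the median was 0.42 with 4 of 17 past the fold. Among only the members with Ccr7 or Lef1 the median was 0.14. Samhd1, a nucleotide hydrolase that restricts viruses, was at 244 and 541 CPM, 1.15 (0.89 to 1.41), beside 0.45 in Foxp3-positive and 0.61 in CD8 T cells. The GTPases that interferon-gamma induces had a median of 0.27 with 1 of 10 past the fold, Iigp1 (0.82).

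**Figure D3:**
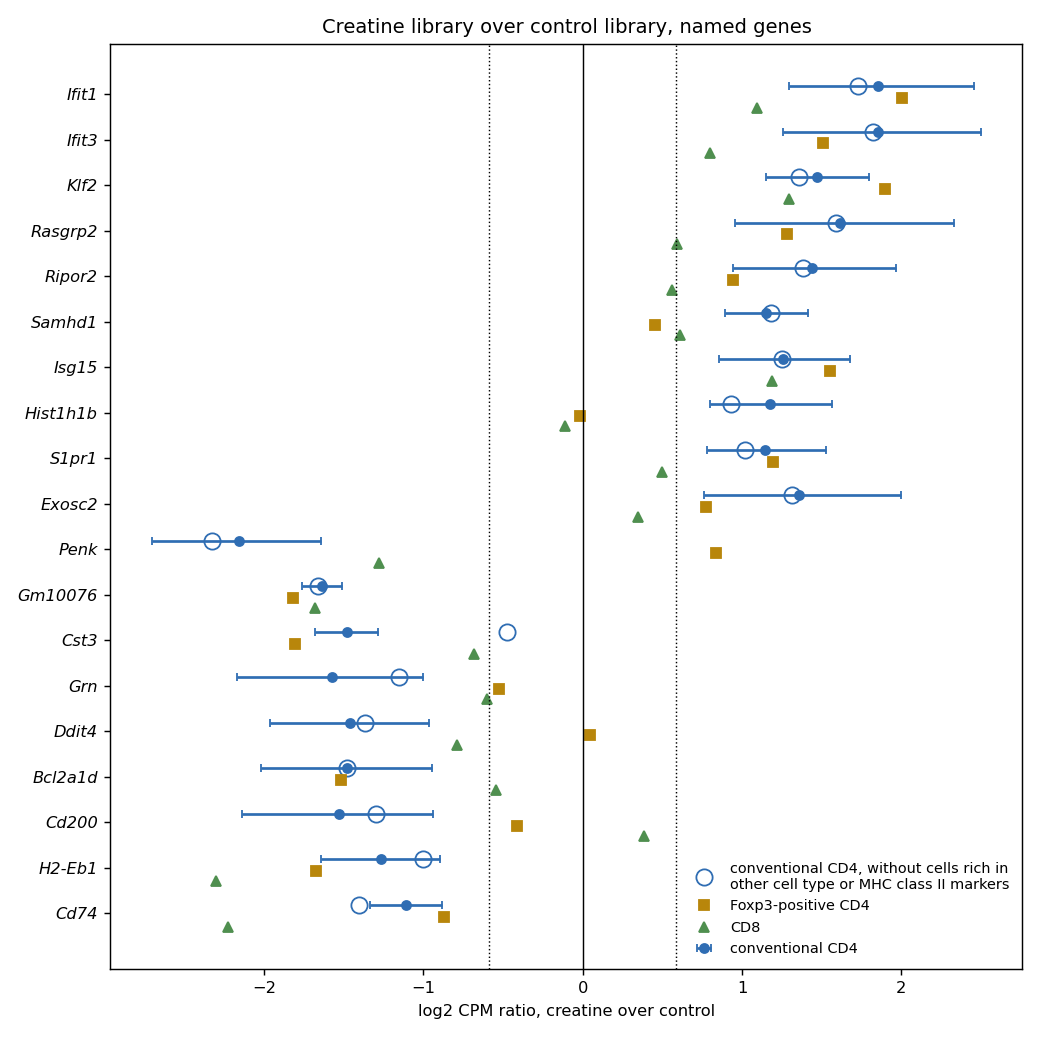
Log2 CPM ratio of the creatine over the control library (x axis) for the 10 genes that rank highest above and 9 of the 10 that rank lowest below 0 in conventional CD4 T cells (filled circles, bars exact 95% intervals), beside Foxp3-positive CD4 (squares) and CD8 T cells (triangles); dotted lines mark 1.5-fold. Open circles leave out the cells rich in other cell type or MHC class II RNA: Klf2, Ifit1 and Ifit3 barely move, whereas Cst3 moves from -1.48 to -0.47.

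Part of the cytotoxic list stood lower in the creatine library. Of 7 genes measured, 4 were at least 1.5-fold lower and none was higher by that much, with a median of -0.68, against 0.30 in Foxp3-positive and 0.04 in CD8 T cells. Without the rich cells 3 of 5 measured were lower, with a median of -0.73, and with no condition on Il2ra the median was -0.23. Gzmb, the death-inducing protease granzyme B, was at 221 and 106 CPM (-1.06), Ctsw, a protease of cytotoxic granules, at 222.5 and 107 (-1.06), and the NK-type receptors Klrd1 and Klrk1 at -0.68 and -0.86. Nkg7 was at 598 and 565 CPM (-0.08). Gzma, granzyme A, was at 0.54, with 75 of its 104 creatine UMIs in 1 cell, and at -1.03 without the rich cells. The share of members with a Gzmb UMI was 15.5% (9.80 to 22.8) and 12.01% (7.62 to 17.7), with overlapping intervals. Of the Th1 list 2 of 10 were lower and none higher, among them Il18rap, a chain of the interleukin-18 receptor, at -0.71. Cxcr6 was at 462 and 330.5 CPM, -0.48 (-0.71 to -0.25), short of 1.5-fold, while its ratio was 0.21 in Foxp3-positive and 0.30 in CD8 T cells. NK cell markers moved the same way as the cytotoxic genes, from 144 to 66.1 CPM over the members, and their part in this difference was not tested. All UMIs of the NK marker Klra4, 29 in control and 17 in creatine members, lay in 1 cell per library. Of 13 control UMIs of Klra8, 12 lay in 1 cell. Without the rich cells Klra4 was at 0 in both libraries, while Klrb1f was still lower in the creatine library, at 22.1 and 5.29 CPM.

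The glycolysis list had 3 of 11 measured enzymes at least 1.5-fold lower and none higher, with a median of -0.38, against -0.13 and -0.10 in Foxp3-positive and CD8 T cells. Tpi1 (triose phosphate isomerase) was at 277 and 146 CPM (-0.92), Pgk1 (phosphoglycerate kinase) at 343 and 201 (-0.77) and Eno1 (enolase) at 326.0 and 205 (-0.67). Of 71 respiratory chain genes 1 was higher and none lower by 1.5-fold, with a median of -0.04. Of the 7 genes listed for creatine transport and phosphorylation none reached 100 UMIs, so none was compared singly. Their sum was 51 and 39 UMIs, 78.8 and 37.9 CPM, a log2 ratio of -1.06 (-1.70 to -0.43), beside -0.90 (-1.41 to -0.40) in Foxp3-positive and -0.17 (-0.35 to 0.02) in CD8 T cells. Of these UMIs 44 and 33 were of the brain-type creatine kinase Ckb and 2 in each library of the transporter Slc6a8.

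The lists of receptors had medians near 0, while single genes of help and homing differed more. The label markers Cd40lg and Tnfsf8 had log2 ratios of 0.31 (-0.27 to 0.92) and 0.32 (-0.21 to 0.85), with intervals that include 0. Checkpoint receptors had a median of -0.08 (1 of 5 higher), costimulatory receptors -0.07 (1 of 10 lower), cytokine receptors -0.06, and Treg markers outside the gate -0.22 (1 of 7 lower). In Foxp3-positive cells these last markers had a median of 0.26. Of the follicular helper list, Slamf6, a receptor of the SLAM family, was at 150 and 266 CPM (0.83) and Izumo1r, the folate receptor 4 of T cells, at 44.8 and 77.8 (0.80), while Cd200, an inhibitory ligand, was at 107 and 36.9 (-1.53), and at -0.29 with no condition on Il2ra. Itga4, the integrin alpha-4 chain of homing T cells, was at 249 and 481 CPM (0.95), beside 1.41 in Foxp3-positive and 0.51 in CD8 T cells. The early-response genes Junb (0.66) and Socs3 (0.92), which tissue dissociation can also induce, were 2 of 7 in that list past 1.5-fold. All 7 were above 0, with a median of 0.31. In Foxp3-positive cells all 7 were also above 0, 4 of them past 1.5-fold, with a median of 0.61. In CD8 T cells 5 were above 0 and 2 below, with a median of 0.28. The part of tissue handling was not tested.

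**Figure D4:**
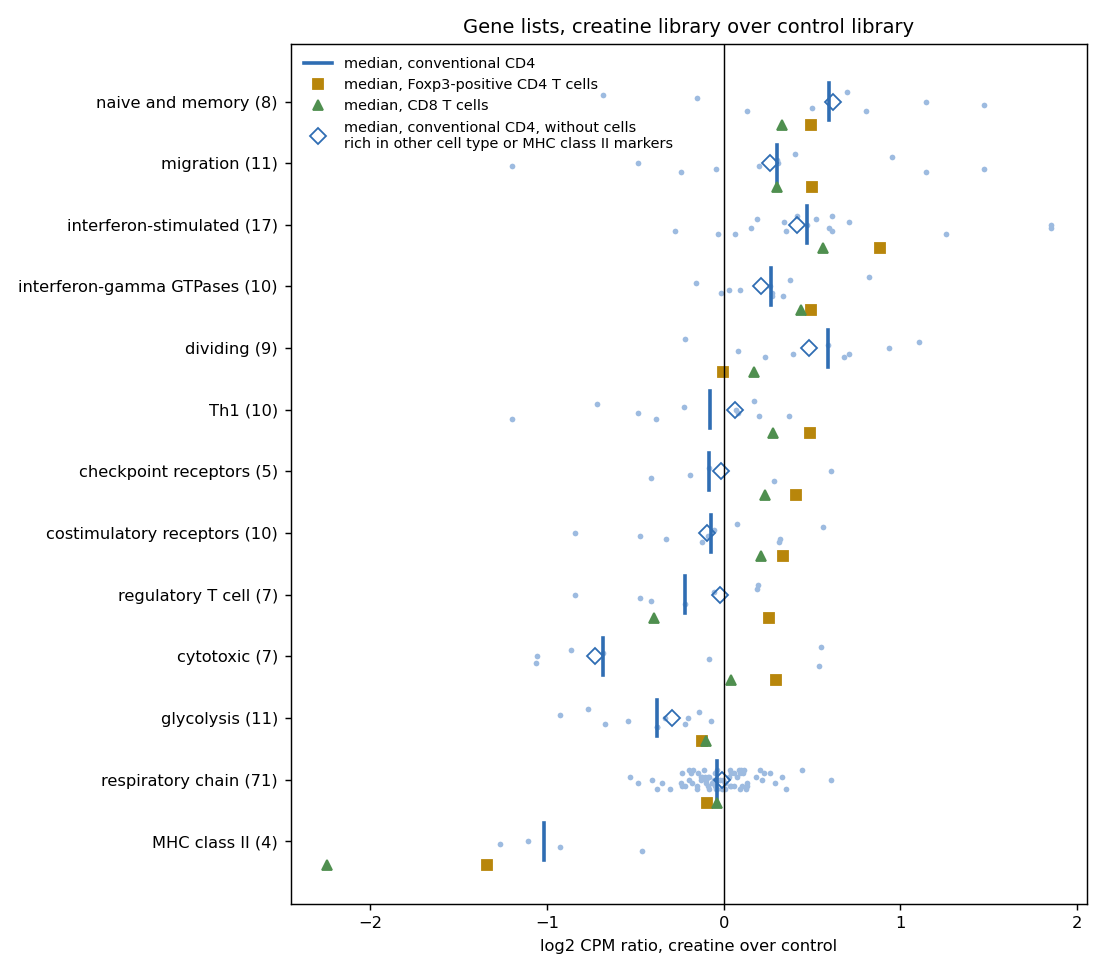
Log2 CPM ratio of the creatine over the control library (x axis) for the measured genes of 13 lists in conventional CD4 T cells (small points, number measured in brackets), with the median in conventional (line), Foxp3-positive (square) and CD8 (triangle) T cells and in conventional cells without the rich cells (diamond). The naive and memory, interferon-stimulated and dividing lists lie to the right of 0 in conventional cells, and the cytotoxic, glycolysis and MHC class II lists to the left.

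Some of the differences came from few cells. The list of dividing-cell genes had 5 of 9 past 1.5-fold with a median of 0.59 (Pcna, the DNA clamp, 1.11; Tyms, thymidylate synthase, 0.94; Top2a 0.71), and 33.6% of control and 42.1% of creatine members held UMIs of 2 or more of its genes, unthinned at medians of 3765 and 4816 UMIs. At equal depth Mki67 was found in 11.2% and 8.2%. With each cell given equal weight this median was -0.25. Hist1h1b, a linker histone of S phase, was at 116 and 261 CPM (1.17), with UMIs in 11 and 16 cells and 117 of its 269 creatine UMIs in 1 cell. Exosc2, an RNA exosome subunit, was at 44.8 and 115 CPM (1.36), with 44 of its 118 creatine UMIs in 1 cell. Penk was at 182 and 40.8 CPM, -2.16 (-2.70 to -1.64), with UMIs in 10 and 4 cells and 59 of 118 control UMIs in 1 cell. Exosc2 was at -0.21 when dividing cells were left out, and Penk at 0.47 when cells with Treg markers were.

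Antigen presentation genes were lower in the creatine library, and most of their RNA lay in 1 cell per library. Cst3, the protease inhibitor cystatin C of myeloid cells, was at 919 and 329.5 CPM (-1.48), with 487 of 595 and 203 of 339 UMIs in 1 cell, and at -0.47 without the rich cells. Cd74, the invariant chain of MHC class II, was at 590.2 and 274 CPM (-1.11), with 255 of 382 and 235 of 282 UMIs in 1 cell, and H2-Eb1, an MHC class II chain, at 236 and 98.2 (-1.27). Without the rich cells Cd74 was at -1.40 and H2-Eb1 at -1.003, and without the top cell of each library they were at -2.12 and -1.65. With only the members that held 2 or more Cd4 UMIs the 3 genes were higher in the creatine library, at 1.39, 0.71 and 0.97. The summed MHC class II list was at 1377 and 704 CPM in conventional and at 435 and 95.2 CPM in CD8 T cells. The part of free or doublet RNA in these differences was not tested. Among T cell genes that were lower, Ddit4, a stress-induced inhibitor of mTORC1, was at 147 and 53.5 CPM (-1.46), beside 0.05 in Foxp3-positive and -0.79 in CD8 T cells, and Bcl2a1d, a survival protein of the Bcl-2 family, at 129.8 and 46.7 (-1.48), beside -1.52 and -0.55. Grn, a secreted growth factor that myeloid cells also make, was at 116 and 38.9 CPM (-1.58; -1.15 without the rich cells). The pseudogene Gm10076 (2289.8 and 737 CPM, -1.64) had a log2 ratio of -1.66 over all kept cells, and near-identical copies may share its reads.

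The mix of cells may differ between the libraries, so the ratios were also taken within it, a split chosen after seeing the data. After thinning, Lef1 was found in 10.9% (6.17 to 17.5) of control and 18.9% (13.4 to 25.4) of creatine members. These intervals overlapped, as did those of Ccr7, so the shares at equal depth do not settle whether the mix differed. Without thinning, 32 control (21.5%) and 75 creatine members (41.0%) held a UMI of Ccr7 or Lef1, at median depths of 4139 and 5006 UMIs. Klf2 had a creatine over control log2 ratio of 1.57 in these cells and 1.11 in the members without such a UMI, and S1pr1 of 0.87 and 1.10. For Ifit1 the ratios were 1.88 and 1.99, for Ifit3 2.65 and 1.86 and for Isg15 0.83 and 1.53. In the members with such a UMI, Ifit3 rested on 3 control and 47 creatine UMIs (1.02 to 4.98), and the interval of Isg15 was 0.04 to 1.71. These 5 genes were higher in the creatine library in both kinds of members. Gzmb was at -2.28 with and -0.54 without such a UMI, Cxcr6 at -0.94 and -0.17, and Nkg7 at -1.10 and 0.41. In the members with such a UMI, Gzmb rested on 39 control and 20 creatine UMIs. Those members also held 517 control and 54 creatine UMIs of Cst3, and 278 and 23 of Cd74. The split is not given without the rich cells, and their part in these ratios was not tested.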

How the data were processed

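The authors sorted TIIs, made droplet libraries and deposited 1 matrix of raw UMI counts per gene and cell barcode for each library; per the labels these counts came from Cell Ranger 3.0.2 with mm10, and the annotation release is not given in the sources used here. The control library held 80434564 UMIs in 7649 barcodes and the creatine library 72898494 in 6503, and 408 and 274 barcodes with over 25% mitochondrial UMIs were left out. Of the filters the study states, at least 300 UMIs and 100 genes per cell removed no further member. No doublet caller was run; doublets were kept, and alternatives left out cells with other cell type markers. A protocol field of the control library also mentions creatine, while its treatment is given as PBS, and the latter was used. The study's text names another harvest day and number of pooled mice in places; those of the labels were used. No deposited sample column was left unused.

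Counts were summed over the cells of a group in each library and divided by the group's total to give CPM. Ratios have exact conditional binomial intervals and shares Clopper-Pearson intervals at 95%; thinned shares are exact expected shares at 2000 UMIs. With 1 library per group no count model was fitted and no test was made. Genes with at least 100 UMIs were compared, with limits of 1.5-fold between libraries and 2-fold between cell groups. The members, the gate and the gene lists were chosen with earlier results of these data known. Named genes were the gate and label genes, members of the lists, and the 10 genes in each direction ranked by the interval bound nearest to 0 (libraries) or by the smaller ratio of the 2 libraries (cell groups), without mitochondrial, ribosomal, receptor variable and sex-linked genes. Scripts used Python 3.11.15, numpy 2.4.6, pandas 2.3.3, scipy 1.17.1 and edgeR 4.0.16 (TMM factors), and were tested on simulated data. Promoter windows came from RefSeq, assembly GRCm38.p6, matched by symbol, with a window for 8 of the 10 named higher and 6 of the 10 named lower genes; of these, 3 and 0 held the motif. Alternatives covered the count minimum, scaling, cell weights, gate conditions, cell filters, the mix of subsets and the thinning depth. Some named genes, and the planned classes of cells defined with 1 of them, are not reported here.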

Additional observations from a re-analysis of the deposited data

Results flagged for a closer look

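Among the named and listed genes, leaving aside respiratory chain, ribosomal and mitochondrial genes, there were 8 of 162 measured (4.94%) for which the creatine over control log2 ratio lay on opposite sides of 0 in conventional and Foxp3-positive CD4 T cells, with counting intervals that left out 0 in both; the difference itself was not tested, because each value rests on 1 library per group. Over all 2438 measured genes 44 (1.8%) met the same rule, 25 of them lower in conventional cells. All 8 were lower in the creatine library in conventional cells. The cytotoxic genes were Gzmb at -1.06 against 0.69 and Ctsw at -1.06 against 0.98. The interferon-gamma receptor chain Ifngr1 was at -0.35 against 0.47. The costimulatory receptors Tnfrsf4 (OX40) and Tnfrsf9 were at -0.47 against 0.42 and -0.84 against 0.25. The T cell receptor kinase Zap70 was at -0.67 against 0.33 and the interferon-induced antigen Ly6e at -0.28 against 0.24. Penk was farthest apart, at -2.16 against 0.84, with its conventional UMIs in 10 control and 4 creatine cells.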

How the results depend on the processing

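With 1 library per group no value has a replicate check, and the 332 members limit each comparison to the more abundant genes. No paired analysis was possible because each group has a single library. Of 16 alternatives 3 were chosen after seeing the data. Over the 15 that bear on single genes, Ifit1 lay between 1.15 and 2.32, Ifit3 between 1.71 and 2.65, Klf2 between 1.01 and 2.09, S1pr1 between 0.73 and 1.73, Samhd1 between 0.83 and 1.39 and Isg15 between 0.48, below 1.5-fold, and 1.64 (creatine over control, log2), and Cd200 between -2.45 and -0.29. Over 13 alternatives the naive and memory median lay between 0.11 and 0.99, the interferon-stimulated median between 0.14 and 0.49 and the cytotoxic median between -1.23 and -0.19. A minimum of 50 UMIs per gene gave 301 genes higher and 213 lower between the libraries and 99 and 191 between the cell groups; a minimum of 200 gave 39 and 23, and 22 and 61. Equal weight for each cell gave 117 genes lower and a median of -0.25 for dividing-cell genes. Requiring 2 Cd4 UMIs gave shares of 0.953% and 1.70%, 46 genes lower, 22 and 77 genes between the cell groups, and turned Cst3 (1.39), H2-Eb1 (0.97), Cd74 (0.71) and the MHC class II median (1.01). With no condition on Il2ra the control share was 2.44%, and 76 genes were lower than in Foxp3-positive cells. Without cells that held 2 or more UMIs of other cell type markers the shares were 0.787% and 1.57%, 36 genes were higher and 33 lower between the libraries, and 8 and 21 between the cell groups. Without dividing cells the shares were 1.37% and 1.70%, the counts 61 and 45, and 9 and 39, and Exosc2 was at -0.21. Without cells with Treg marker UMIs the shares were 1.48% and 1.89%, 32 genes were lower, and Penk (0.47), Cst3 (1.58), H2-Eb1 (1.54), Cd74 (2.06) and the MHC class II median (1.71) turned. Only members with Ccr7 or Lef1 gave 29 genes lower; only those without gave 75 higher and 37 lower, Hist1h1b at -0.64, the dividing-cell median at -0.57, and turned Cst3 (1.56), H2-Eb1 (0.95), Cd74 (1.00) and the MHC class II median (1.18). Without the rich cells 29 genes were higher in conventional than in Foxp3-positive cells. Fewer cells leave fewer genes above 100 UMIs in the alternatives that drop cells; other causes were not tested. TMM scaling, a total without mitochondrial and ribosomal genes, a limit of 10% mitochondrial UMIs and thinning to 1000 UMIs left the gene counts within 1.5 times and the shares of cells within their intervals.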

Other observations

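Further gene groups were compared between the creatine and control libraries in conventional CD4 T cells. The 13 T cell identity genes had a median log2 ratio of -0.08, with Cd247, the zeta chain of the T cell receptor complex, at 0.59 and the kinase Zap70 at -0.67. Genes that T cell receptor signals induce had a median of 0.05 over 9 measured (0.93 in only the members with Ccr7 or Lef1, and between -0.30 and 0.12 over the other alternatives), with the phosphatase Dusp2 (-0.85) and Tnfrsf9 (-0.84) lower. The migration list, which shares Klf2 and S1pr1 with the naive and memory list, had 3 of 11 higher and 1 lower, with a median of 0.30. Heat shock genes were at 0.16 with none of 6 past the fold, helper genes at 0.03, mitochondrially encoded genes at -0.12 and ribosomal protein genes at 0.03. Gata3 and Rora were the only genes of the Th2 and Th17 lists with at least 100 UMIs: Gata3 was at 0.59 and Rora, which encodes ROR-alpha, at -0.88. Rora was found in 35.3% (27.2 to 44.1) of control and 20.9% (15.2 to 27.6) of creatine members at 2000 UMIs, beside 25.9% and 23.0% of Foxp3-positive cells.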
